A study of Rattus norvegicus with 25 samples.

Results

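The adrenergic receptors are the 7 genes Adra1a, Adra1b, Adra1d, Adra2a, Adra2b, Adra2c and Adrb1, and their rows were found by gene name in the tables of the basolateral amygdala (BLA) and of the dentate gyrus (DG). Of the 26312 gene identifiers in each table, 6 carried one of these names, each name having a single identifier. Adra1b was not analysed here. The animals were adult, male, wild-type Sprague-Dawley rats. Stressed rats were immobilized once for 3 h in the presence of fox urine and had blood drawn meanwhile, and controls stayed in the home cage apart from a cage change. Stressed rats were also housed in a separate room for the first nights after stress. All rats went through a battery of behavioral tests shortly before tissue was taken. On day 9 the left BLA and left DG were punched and poly-A RNA was sequenced from 3 groups, namely controls, stress-exposed rats with low composite anxiety-like behavior scores ("stress-low") and stress-exposed rats with high scores ("stress-high"). The question was how the regions of animals with different behavioral outcomes after the same stressor differ in transcript levels. Animals were picked from the ends of the behavioral range, and the stressed groups differ from each other by behavior and not by treatment.

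Adrenergic receptors are G protein-coupled receptors for noradrenaline and adrenaline. In the forebrain their main ligand is noradrenaline released by axons of the locus coeruleus, whose cell bodies lie in the brainstem. The α1 receptors (Adra1a, Adra1b, Adra1d) couple to Gq and phospholipase C, the α2 receptors (Adra2a, Adra2b, Adra2c) couple to Gi/o and lower cyclic AMP, and the β1 receptor (Adrb1) couples to Gs and raises cyclic AMP. Receptor signaling in the BLA is known for its part in the strengthening of emotional memory, and in the DG for its part in synaptic plasticity. A transcript measured in a punch comes from cell bodies and processes there, so receptor protein on incoming axons is not seen.

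There were 13 BLA libraries (7 control, 3 stress-low, 3 stress-high) and 12 DG libraries (6, 3 and 3), 1 library per animal and region. The BLA libraries summed to 12709493 to 22801247 expected counts each and the DG libraries to 11656439 to 19477932. In each region 1 control library stood apart in a principal component analysis and was left out, as the study did for 1 control per region. In the BLA it was animal 2, with a score of 46.4 on the first component where the other libraries had -17.3 to 12.5. In the DG it was animal 35, with 55.95 against -13.7 to 2.28. All values below are from the remaining 12 BLA and 11 DG libraries unless stated. The BLA library of animal 35 had a library name that says control and a treatment entry that says stressed, and it was kept as a control. Of the 6 granule cell markers, Prox1 had a median of 73.3 TPM in the DG and 2.57 in the BLA, C1ql2 336 and 2.80, Neurod1 56.05 and 1.91, and Dsp 6.51 and 0.195, each with separate ranges. Calb1 had the higher median in the BLA, 135 against 105 TPM, and Tdo2 was at a median of 0.07 and 0 TPM. The glutamatergic marker Slc17a7 had a median of 1054 TPM in the BLA, and Drd1, a marker of striatal and central amygdala neurons, 21.2 TPM. These are bulk punches, in which fewer cells of a type and less RNA per cell cannot be told apart.

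In the BLA the α2C receptor gene Adra2c was the most abundant of the 6 receptors and Adra2b the least. The order is given on the TPM scale, which is per transcript length. Median TPM over the 12 libraries was 26.6 for Adra2c, 12.1 for Adra2a, 12.0 for Adrb1, 9.04 for Adra1a, 8.0 for Adra1d and 0.055 for Adra2b. Adra2c was above Adra2a in every one of the 12 libraries. Adra2a and Adrb1 did not differ beyond their spread, with Adra2a higher in 6 of 12 libraries, and neither did Adra1a and Adra1d, with Adra1a higher in 7 of 12.

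Of the Gq-coupled receptors, Adra1a encodes the α1A subtype. It was at 8.80 to 10.5 TPM in the 6 BLA controls with a median of 9.04, at 8.80, 9.44 and 11.1 in the stress-low animals, and at 6.18, 7.43 and 10.1 in the stress-high animals. The 2 lowest values of the region were in stress-high animals, and the third stress-high animal lay within the control range. Adra1d, the α1D subtype, was the most variable tested receptor. It ran from 5.0 to 15.8 TPM in the controls with a median of 8.94, and was at 7.73, 7.29 and 6.74 in the stress-low and 6.22, 10.9 and 8.27 in the stress-high animals. Both the highest and the lowest value belonged to controls. The coefficient of variation of Adra1d over the BLA libraries was 33.5%, higher than that of 89.1% of the tested genes, whose median was 12.3%.

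Of the Gi/o-coupled receptors, Adra2a encodes α2A, the subtype known as the main presynaptic autoreceptor. It was at 9.40 to 17.9 TPM in the BLA controls with a median of 12.2, at 11.9, 17.1 and 11.6 in the stress-low, and at 11.4, 12.2 and 14.5 in the stress-high animals. Adra2c, the α2C subtype, was at 24.97 to 27.8 TPM in the controls with a median of 26.6, at 27.3, 28.8 and 25.9 in the stress-low, and at 21.8, 24.5 and 28.2 in the stress-high animals. Its coefficient of variation was 7.37%, and only 13.0% of the tested genes varied less. Adra2b, the α2B subtype, had at most 5 counts in any of the 12 libraries and 0 in 5 of them. A count of 3 was worth 0.0946 to 0.178 TPM for this gene, so its levels lay about the detection floor in all groups and no fold is given. Counting error only is covered by that floor.

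The Gs-coupled receptor gene Adrb1 was at 11.1 to 15.0 TPM in the BLA controls with a median of 12.3, at 16.2, 10.9 and 12.3 in the stress-low, and at 9.70, 10.3 and 15.7 in the stress-high animals. Both stressed groups had a value above and a value below the whole control range.

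**Figure D1:**
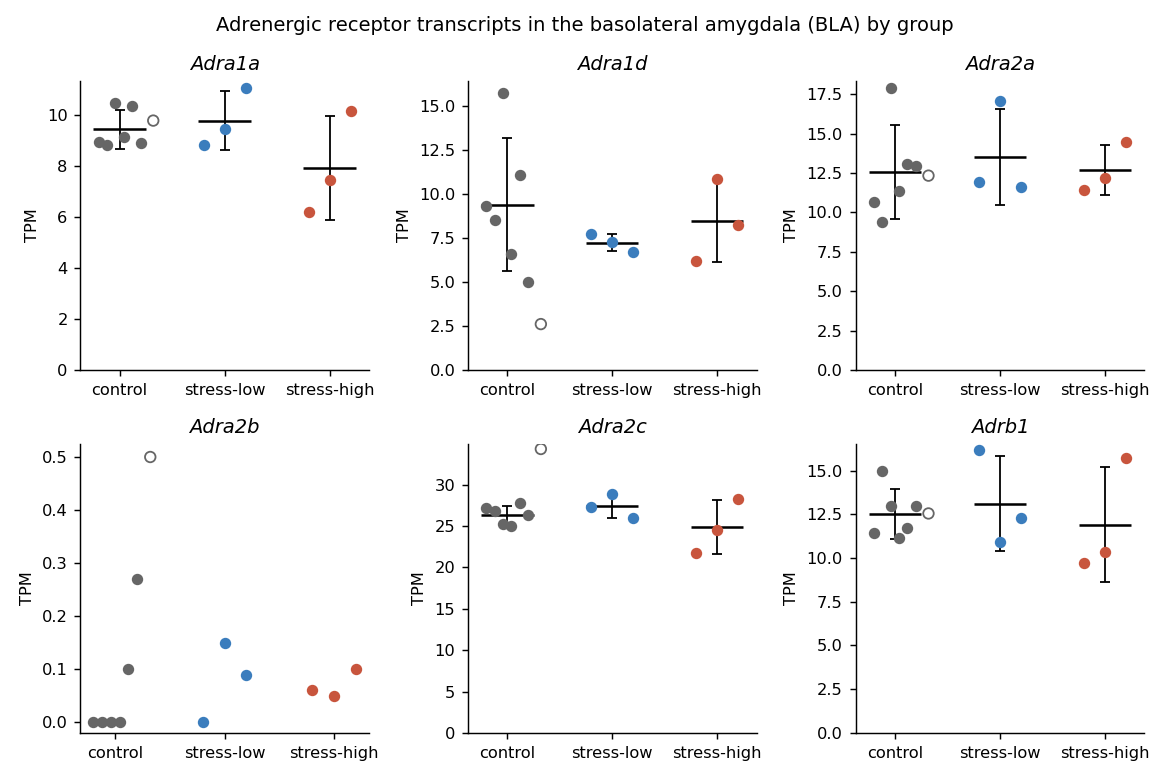
TPM of the 6 receptor genes in each BLA library, by group, with filled points for the 12 libraries used, an open point for the control left out, a line for the group mean and bars for 1 SD (none for Adra2b). Group ranges overlap in every panel, and Adra1d shows its widest spread among the controls, from 5.0 to 15.8 TPM.

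In the DG the order was different. Median TPM over the 11 libraries was 56.1 for Adra1d, 24.5 for Adra2c, 12.1 for Adrb1, 3.66 for Adra1a, 1.86 for Adra2a and 0 for Adra2b. Each receptor was above the next one in all 11 libraries.

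Adra1d was at 48.6, 56.3, 64.5, 59.6 and 42.2 TPM in the 5 DG controls, at 53.8, 54.1 and 54.4 in the stress-low animals, and at 70.9, 56.1 and 58.3 in the stress-high animals. The 3 stress-low animals were within 1 TPM of each other, all 3 stress-high animals lay above them, and the controls lay on both sides. Adra1a had few reads in this region, 29 to 75 counts per library. It was at 4.16, 3.66, 4.25, 3.28 and 3.79 TPM in the controls, at 2.63, 4.80 and 2.42 in the stress-low, and at 3.39, 3.66 and 3.64 in the stress-high animals. The highest and the 2 lowest values were all in the stress-low group.

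Adra2c was at 22.5, 28.3, 20.8, 22.8 and 37.2 TPM in the DG controls, at 28.6, 28.5 and 27.3 in the stress-low, and at 24.5, 19.1 and 20.6 in the stress-high animals. Every stress-high animal was below every stress-low animal, and the control range enclosed all stress-low values and 1 of the 3 stress-high values. Adra2a, at 31 to 69 counts per library, was at 1.90, 1.86, 1.32, 1.80 and 2.61 TPM in the controls, at 1.42, 2.07 and 1.94 in the stress-low, and at 2.02, 1.84 and 1.65 in the stress-high animals, so all stressed animals lay inside the control range. Adra2b had a count in 3 of the 11 libraries, 1 control and 2 stress-high animals, with at most 3 counts each. A count of 3 was worth 0.132 to 0.226 TPM there.

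Adrb1 was at 9.95, 11.5, 11.4, 14.5 and 16.3 TPM in the DG controls, at 12.1, 9.89 and 10.8 in the stress-low, and at 13.4, 12.3 and 12.4 in the stress-high animals. The stress-high animals were close to each other and above all stress-low animals, and every stress-high animal lay inside the control range. Stress-low animal 33, at 9.89 TPM, lay just below that range.

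**Figure D2:**
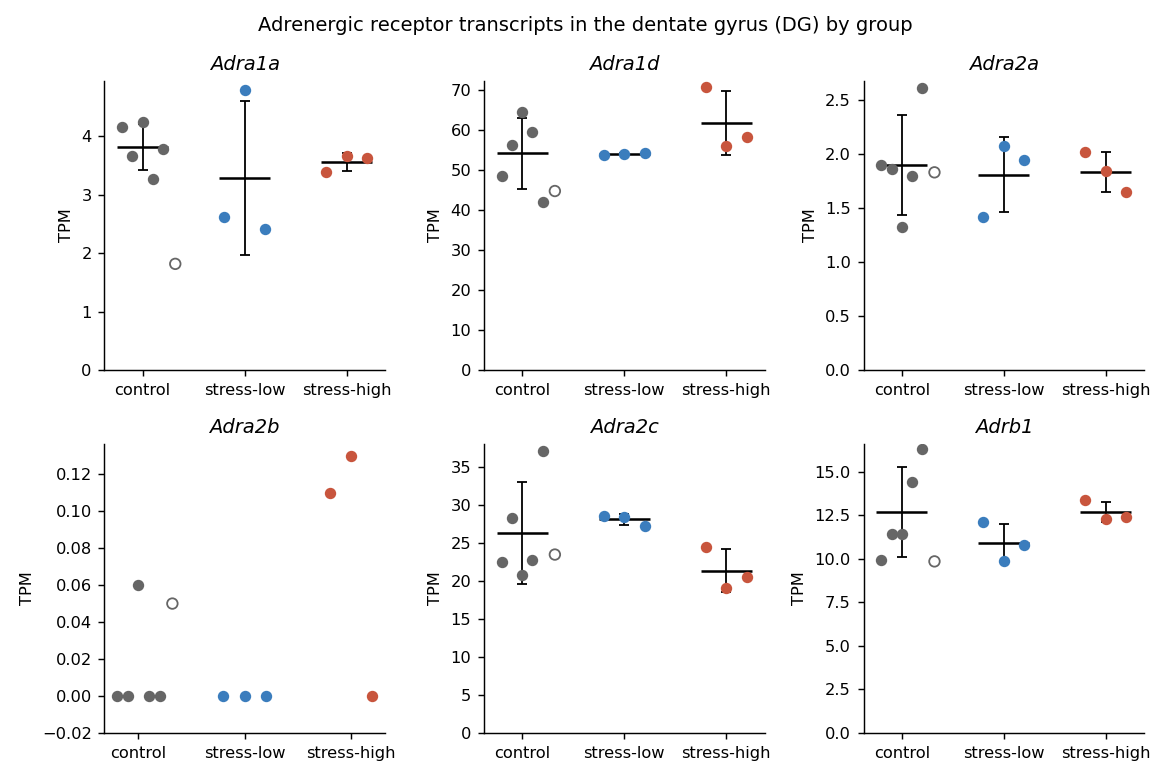
TPM of the 6 receptor genes in each DG library, by group, with filled points for the 11 libraries used, an open point for the control left out, a line for the group mean and bars for 1 SD (none for Adra2b). Stress-high and stress-low points do not overlap for Adra1d, Adra2c and Adrb1, and the control points cover most of both ranges.

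The receptor makeup of the regions differed most in Adra1d, Adra2a and Adra1a. In the 9 animals with both regions in the set, the TPM of Adra1d was 3.80 to 11.4 times as high in the DG as in the BLA, with a median ratio of 7.05. Adra2a went the other way, its TPM in the BLA being 4.996 to 8.77 times that in the DG with a median ratio of 6.31, and the BLA to DG ratio of Adra1a was 1.82 to 4.57 with a median of 2.73. Each of these 3 directions held in 9 of 9 animals. Adra2c and Adrb1 had median DG to BLA ratios of 1.04 and 1.0, and 5 of 9 animals were higher in the DG for either gene. Adra2b was at the floor in both regions. The levels were not tested between the regions. The length minus the effective length of a transcript, which depends on the read layout and fragment lengths given to the quantification, was 50 bases in all BLA libraries and 261 to 274 bases in the DG libraries. Region and this difference between the tables cannot be told apart.

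**Figure D3:**
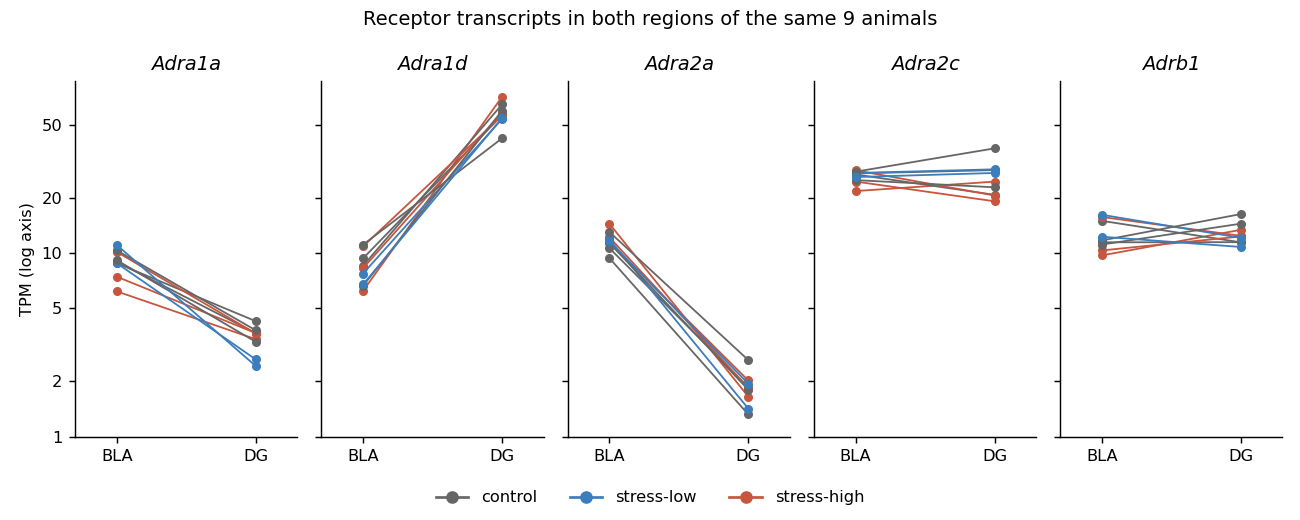
TPM on a log axis of 5 receptor genes in the BLA and the DG of the same 9 animals, with 1 line per animal colored by group. Every line rises for Adra1d and falls for Adra2a and Adra1a from the BLA to the DG, while lines for Adra2c and Adrb1 go both ways.

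Summed by G protein class, the Gi/o-coupled receptors had the largest share of receptor TPM in the BLA and the Gq-coupled receptors in the DG. In the BLA libraries Adra2a, Adra2b and Adra2c together made up 52.4% to 62.5% of the summed TPM of the 6 genes, with a median of 55.8%. Adra1a and Adra1d made up 20.9% to 31.9% there, and Adrb1 14.8% to 22.5%. In the DG libraries the 2 α1 genes made up 45.0% to 67.2%, with a median of 60.6%, of which nearly all was Adra1d. The α2 genes made up 21.6% to 39.0% and Adrb1 9.95% to 16.0%. The median summed TPM of the 6 genes was 68.1 over BLA libraries and 99.4 over DG libraries. Among the DG groups the Gi/o-coupled share was 30.2% to 30.8% in stress-low, 22.7% to 23.3% in stress-high and 21.6% to 39.0% in control animals.

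**Figure D4:**
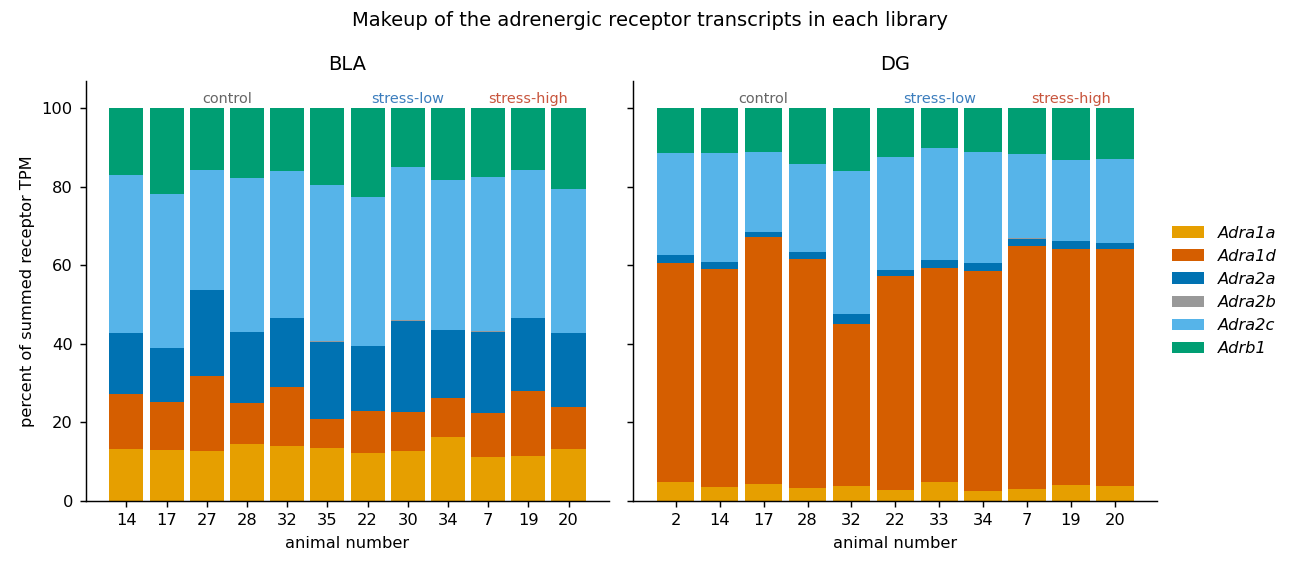
Percent of the summed TPM of the 6 receptor genes that each gene took in each library of the BLA (left, 12 libraries) and DG (right, 11 libraries), in order of group and animal number. Adra2c takes the largest share of BLA libraries and Adra1d of DG libraries, and control animal 32 has the smallest Adra1d share of the DG, 41.3%.

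For the group comparisons, expected counts were fitted with edgeR's quasi-likelihood model over 15230 BLA and 14080 DG genes, and Adra1a, Adra1d, Adra2a, Adra2c and Adrb1 passed the filter on low counts in both regions. Adra2b did not and was not tested in these fits. Across all genes, adjusted p-values stayed at 0.05 or more in every contrast of groups within a region, so the share of genes called was 0% each time and 0 of the 5 receptors were called. Comparisons with the controls share the control libraries. DESeq2 called 0 of the 5 receptors as well.

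In the BLA Adra1a was the only receptor with an unadjusted p under 0.05. Between control and stress-high animals its log2 fold change was -0.27 (SE 0.12, 95% interval -0.52 to -0.02, adjusted p = 1.0 by edgeR's quasi-likelihood test), where 2.57% of all tested genes had an unadjusted p under 0.05. The group means were 9.43 ± 0.763 TPM (SD) in the 6 controls, 9.77 ± 1.16 in the 3 stress-low and 7.92 ± 2.02 in the 3 stress-high animals, and the ranges overlapped. Between stress-low and stress-high animals the log2 fold change was -0.29 (SE 0.13, interval -0.58 to 0.002), and it was -0.15 without stress-low animal 34, -0.18 without stress-high animal 7 and -0.42 without stress-high animal 20. The lowest unadjusted p of this contrast over the refits was 0.0092 by edgeR, without animal 20. With the title number of the libraries as a block it was 0.028 by edgeR. The lowest levels were those of stress-high animals 7 and 19. Without animal 7 the log2 fold change from control was -0.16 and without animal 19 it was -0.25, both at an unadjusted p over 0.05. Without animal 20 it was -0.40, at an unadjusted p of 0.0064 by edgeR. With all animals, the unadjusted p against control was also under 0.05 by DESeq2, but over 0.05 in each limma fit on TPM. In the refits of both contrasts the adjusted p stayed at 0.99 or more.

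For Adra1d in the BLA the log2 fold change from control was -0.40 (interval -0.95 to 0.14) in stress-low and -0.15 (interval -0.68 to 0.38) in stress-high animals. These wide intervals went with the spread among its controls. Without control animal 27, which had the highest level, the stress-low value was -0.21, and without animal 35, whose labels disagree and which had the lowest, it was -0.52, at an unadjusted p under 0.05 (adjusted p = 1.0 by edgeR).

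The α2 receptors and Adrb1 moved less in the BLA. Adra2c had the narrowest intervals of the region, with log2 fold changes from control of 0.01 (interval -0.12 to 0.15) in stress-low and -0.09 (interval -0.23 to 0.05) in stress-high animals. Adra2a had 0.07 (interval -0.24 to 0.38) and 0.02 (interval -0.29 to 0.33), and Adrb1 0.02 (interval -0.30 to 0.35) and -0.09 (interval -0.41 to 0.24). No receptor had separate TPM ranges in the BLA, where 5.89% of tested genes had them when the stressed groups were compared, 1.39% when stress-low was compared with control and 0.978% when stress-high was. At an unadjusted p under 0.05, 0 of the 5 receptors stood in the contrast of the stressed groups (1.98% of tested genes), in that of stress-low with control (2.75%) and in that of both stressed groups with control (3.03%). Over the 5 receptors, the median log2 fold change from stress-low to stress-high was -0.10, where the median of all tested genes was -0.000554.

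In the DG the contrast between the stressed groups was the one in which the receptors lay furthest apart. Adra2c was 28.1 ± 0.717 TPM (SD) in the stress-low and 21.4 ± 2.77 in the stress-high animals, a log2 fold change of -0.39 (SE 0.18, interval -0.79 to 0.01, adjusted p = 1.0 by edgeR). Adra1d was 54.1 ± 0.276 and 61.8 ± 8.02 TPM, with a log2 fold change of 0.20 (interval -0.10 to 0.49) that was 0.068 without stress-high animal 7. Adrb1 was 10.9 ± 1.11 and 12.7 ± 0.591 TPM, with a log2 fold change of 0.22 (interval -0.14 to 0.58) that was 0.15 without stress-low animal 33. The TPM ranges of the stressed groups did not overlap for these 3 of the 5 receptors, where this was so for 8.69% of the 14080 tested genes. All of these intervals included 0. Of the 5 receptors 0 had an unadjusted p under 0.05 in this contrast by edgeR, where 3.12% of tested genes did. By DESeq2 the unadjusted p of Adra2c was under 0.05 and its adjusted p was 1.0. By edgeR the unadjusted p of Adra2c was also under 0.05 without stress-high animal 7, at a log2 fold change of -0.51, and without control animal 17 or 32 (lowest adjusted p = 0.889).

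Adra1a and Adra2a, at low counts in the DG, had log2 fold changes of 0.12 (interval -0.37 to 0.61) and 0.03 (interval -0.49 to 0.56) from stress-low to stress-high. Without stress-low animal 33, which had the highest Adra1a, the value of Adra1a was 0.49, at an unadjusted p under 0.05 (adjusted p = 1.0 by edgeR). Against the controls, whose Adra2c values spread from 20.8 to 37.2 TPM, Adra2c had log2 fold changes of 0.10 (interval -0.25 to 0.46) in stress-low and -0.29 (interval -0.64 to 0.07) in stress-high animals. Without control animal 32, which had the highest Adra2c, the stress-high value was -0.14 and the stress-low value 0.25, and without control animal 17 the stress-low value was 0.023. Adra1d had 0.01 (interval -0.25 to 0.27) and 0.21 (interval -0.05 to 0.47), and the stress-high value was 0.077 without stress-high animal 7 and 0.12 without control animal 32. Adrb1 had -0.21 (interval -0.53 to 0.12) and 0.01 (interval -0.30 to 0.33), and the stress-low value was -0.11 without control animal 32 and -0.14 without stress-low animal 33. None of the 5 had an unadjusted p under 0.05 against control, where 6.9% of tested genes did for stress-low, 2.19% for stress-high and 4.42% for both together, and none had a range separate from the controls, where 3.71% did for stress-low and 1.46% for stress-high. With 1 library left out, an unadjusted p under 0.05 was reached for Adra2c in stress-high (without animal 7 or 17), Adra1d in stress-high (without animal 17) and Adra1a in stress-low and in both stressed groups (without animal 33), with adjusted p-values of 0.98 or more. The summed TPM of granule cell markers was 499 to 582 in stress-low and 533 to 641 in stress-high animals, that of GABA interneuron markers 901 to 972 and 821 to 1077, and that of astrocyte markers 1716 to 1968 and 1845 to 1855. For each of the 11 marker lists these ranges overlapped. Over the 11 DG libraries, on log2(TPM + 1), Pearson's r of summed granule cell markers was 0.70 with Adrb1, 0.42 with Adra2c and -0.32 with Adra1d. For GABA interneuron markers it was 0.25, 0.14 and -0.58, and for astrocyte markers -0.27, -0.27 and 0.23. The part of cell makeup in the receptor values was not tested.

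**Figure D5:**
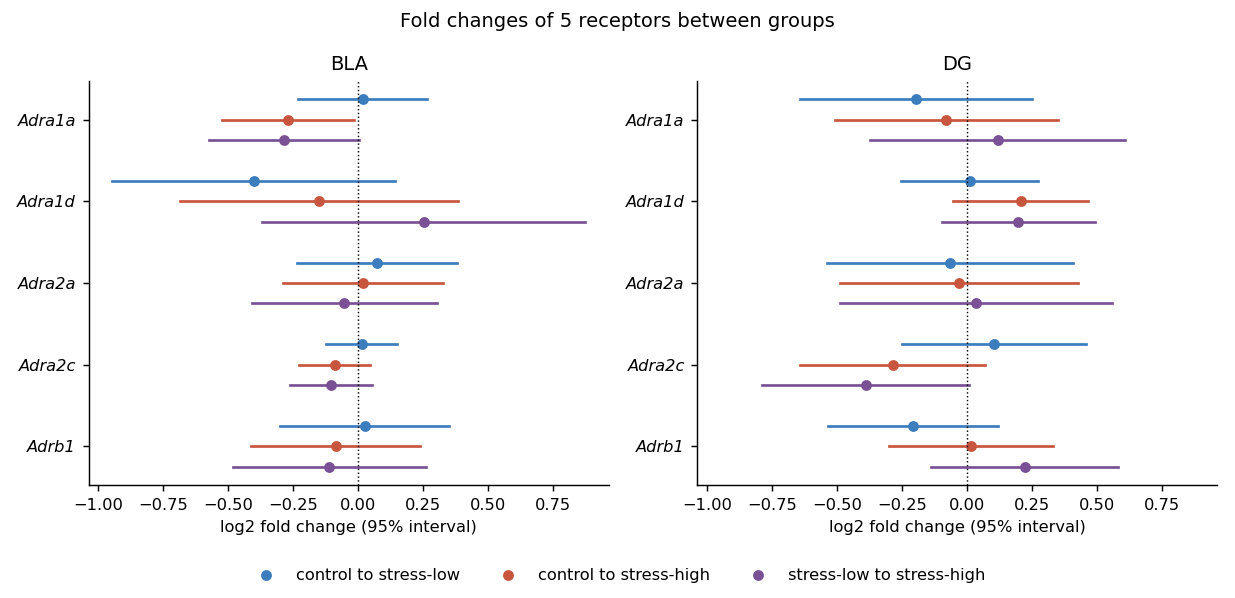
Log2 fold changes of 5 receptor genes for 3 group contrasts in the BLA (left) and DG (right), with points for the edgeR estimate and lines for its 95% interval. Only the interval of Adra1a from control to stress-high in the BLA leaves 0 out, and the widest are those of Adra1d in the BLA.

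Whether a receptor changed differently in the DG and the BLA was tested as the difference of the regional contrasts in a single fit. This fit had no term for the animal. Its intervals and p-values therefore treat all libraries as independent, although 9 animals gave a library to each region. The stress-low animals also differed by region, as animal 30 had only a BLA library and animal 33 only a DG library. From stress-low to stress-high, the log2 fold change in the DG minus that in the BLA was 0.42 for Adra1a (interval -0.10 to 0.94), 0.35 for Adrb1 (interval -0.17 to 0.87) and -0.27 for Adra2c (interval -0.70 to 0.16). From control to both stressed groups it was 0.39 for Adra1d (interval -0.11 to 0.89) and -0.02 for Adra1a (interval -0.39 to 0.36). None of the 10 differences had an unadjusted p under 0.05, where 2% of tested genes did for the first contrast and 2.67% for the second. In a limma-voom fit with the animal as a block, the value of Adra1a for the first contrast was 0.51 (SE 0.25, unadjusted p = 0.051). No receptor had an unadjusted p under 0.05 for either contrast in that fit. The value for Adra1a moved with single animals. Without stress-low animal 33 its difference between the stressed groups was 0.79, at an unadjusted p under 0.05 (adjusted p = 1.0 by edgeR), and without stress-low animal 34 it was 0.12. That of Adrb1 was 0.22 without animal 7 and 0.55 without animal 20, and that of Adra2c was -0.42 without animal 7. The control difference of Adra1d was 0.20 without animal 27 and 0.25 without animal 7, and its unadjusted p was under 0.05 without animal 19 or 35 (adjusted p = 1.0 by edgeR for both). A p that misses the threshold does not show that the regions act alike.

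The genes that make and clear the ligand were read from the same fits. The noradrenaline transporter Slc6a2 was listed at 0 in 11 of 12 BLA and in 11 of 11 DG libraries. Th, which makes the catecholamine precursor, was at 0.34 to 1.05 TPM in the BLA and 0.06 to 0.42 in the DG, and Dbh, which converts dopamine to noradrenaline, at 0.04 to 0.33 and 1.08 to 1.90. The monoamine oxidases, which break the transmitter down, were well measured, with medians in the BLA and the DG of 45.2 and 50.3 TPM for Maoa and 30.6 and 30.4 for Maob. From control to stress-low in the DG, none of the 60 tested pathway genes had an adjusted p under 0.05, and 2 were higher and 3 lower at an unadjusted p under 0.05, where 6.9% of all tested genes had such a p.

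Below the receptors, genes of the Gq, Gi/o and Gs arms were counted in the same way. In no comparison did any of the tested genes of these lists, or of the receptor kinases and arrestins, have an adjusted p under 0.05. At the unadjusted threshold, and with the ligand genes included, there was 1 higher and 0 lower gene of 60 from control to stress-high in the BLA (2.57% of all tested genes) and 0 higher and 2 lower of 60 in the DG (2.19%). Between the stressed groups there were 0 in the BLA (1.98% of all tested genes) and 0 in the DG (3.12%). From control to both stressed groups together there were 1 higher and 4 lower of 60 in the DG (4.42% of all tested genes). In the BLA there were 0 in that contrast (3.03%) and 0 from control to stress-low (2.75%). The BLA gene was Pde4a, a phosphodiesterase that breaks down cyclic AMP, with a log2 fold change of 0.16 (SE 0.07, adjusted p = 1.0 by edgeR). In the DG, Akap5, which anchors protein kinase A near its targets, had a log2 fold change of -0.28 (SE 0.10, adjusted p = 0.718 by edgeR) from control to stress-low. Rgs8, which speeds the shut-off of Gi/o proteins, had -0.21 (SE 0.08) in that contrast, also at an adjusted p of 0.718. The median log2 fold change of the 60 tested pathway genes from stress-low to stress-high was 0.03 for the BLA and -0.01 for the DG, where that of all tested genes was -0.000554 and -0.000172. Other pathway genes with the smallest unadjusted p of their contrast also missed an adjusted p of 0.05. In the BLA their log2 fold changes were 0.62 for the Gq family member Gna14, 0.14 for the phosphodiesterase Pde4d and 0.21 for the adenylyl cyclase Adcy9 from stress-low to stress-high. They were -0.16 for the potassium channel gene Kcnj6 and -0.14 for the protein kinase C gene Prkca from control to stress-low, and -0.18 for Akap5 and 0.34 for the adenylyl cyclase Adcy7 from control to stress-high. In the DG they were -0.15 for the protein kinase C gene Prkcb, -0.15 for the inhibitory G protein subunit Gnai1 and 0.18 for the arrestin Arrb2 from stress-low to stress-high, and -0.18 for Rgs8 and 0.34 for Dbh from control to stress-high. From control to both stressed groups together they were 0.11 for Pde4a, -0.14 for Akap5 and -0.14 for Kcnj6 in the BLA, and -0.20 for Rgs8 and -0.22 for Akap5 in the DG.

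Among each other, the receptors showed no pattern across libraries that held in both regions. Over 20 pairs of tested receptors, 10 in each region, no correlation of log2(TPM + 1) had an adjusted p under 0.05 (permutation test, 100000 permutations, two-sided). The strongest was that of Adra1a with Adra2c over the 12 BLA libraries, with Pearson's r 0.69 (permutation p = 0.018, adjusted p = 0.315) and Spearman's rho 0.36 (permutation p = 0.244, adjusted p = 0.678). Without the 2 libraries farthest from the median of Adra1a its r was 0.44. In the DG the same pair had an r of -0.15.

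The genes whose level over the libraries was most like that of each receptor were read from all named tested genes, by Pearson's r of log2(TPM + 1), as a description, since libraries share depth and tissue makeup and 14144 BLA and 13493 DG genes were searched. In the BLA they were Prkg2 (0.94) and Raver2 (0.91) for Adra1d, Specc1l (0.94) and Slco2b1 (0.93) for Adra2a, Shoc2 (0.93) and Tmem62 (0.92) for Adra2c, Slc35b3 (0.91) and T2 (0.91) for Adra1a, and Ighmbp2 (0.90) and Fdx1 (0.90) for Adrb1, over 12 libraries. In the DG they were Tacr3 (0.88) and Hey2 (0.83) for Adra1d, Cldn1 (0.91) and Zfp422 (0.90) for Adra2a, Rmdn2 (0.94) and Lrpap1 (0.91) for Adra2c, Dhtkd1 (0.87) and Fermt2 (0.86) for Adra1a, and Ptgfrn (0.92) and Fut4 (0.90) for Adrb1, over 11 libraries. Of the genes named, T2 was at only 0.17 to 1.14 TPM in the BLA and Tacr3 at only 0.05 to 1.23 TPM in the DG. No gene was named for a receptor in both regions.

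The control libraries carry "high" or "low" in their names, and the receptors were set beside this label. In the BLA, Adra2c was at 26.8, 27.1 and 27.8 TPM in the 3 controls named high and at 24.97, 25.2 and 26.3 TPM in the 3 named low. The ranges did not overlap, which was so for 6.03% of the tested BLA genes, and they did overlap for the other 4 tested receptors. The left-out BLA control, animal 2, was also named low and had Adra2c at 34.29 TPM, above every control named high. With that library included, the Adra2c ranges overlapped. In the DG, Adra2c was at 20.8, 28.3 and 37.2 TPM in the 3 controls named high and at 22.5 and 22.8 TPM in the 2 named low. No receptor had separate ranges there, where 15.4% of tested genes did. Groups of 3 against 3 can reach no p below 0.1 in an exact two-sided permutation test, and none was run.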

How the data were processed

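The 25 poly-A RNA libraries were grouped by their labels. Per the labels and the study's methods, alignment by the authors used STAR 2.6.0a with Rn5 (Ensembl build 75), and quantification used RSEM 1.3.1. The deposited expected counts are estimated counts per gene, and the deposited TPM, length and effective length are other per-gene columns of the same tables. All 26312 identifiers were kept by the authors, with no filter on low values; 5742 had no name.

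After rounding, expected counts went into edgeR 4.0.16 (TMM normalization, the filterByExpr filter, quasi-likelihood F-tests, 3 group means per region, Benjamini-Hochberg over all tested genes, threshold 0.05). The control farthest from the median on the first component of log2(TPM + 1), over genes with a mean of at least 1 TPM, was left out per region. Median standard errors of a log2 fold change between the stressed groups were 0.13 (BLA) and 0.12 (DG). Correlations used 100000 permutations. Figures used matplotlib 3.10.9. Tests were tried on simulated counts. Alternatives were DESeq2 1.42.0, RLE factors, no filter, all libraries, blocks, limma 3.58.1 on TPM, and leaving out each library or animal.

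The members and the lists were chosen with earlier results of these data known. Genes named were the members, ligand genes, the 3 pathway genes per comparison with the smallest p, and the 2 genes most like each member per region. Some genes are not reported here, and sequences were not used.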

Additional observations from a re-analysis of the deposited data

Results flagged for a closer look

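Both results below come from a library that no group comparison used, the BLA control of animal 2, which stood apart on the first principal component. Adra2c was at 34.29 TPM in it, where the highest of the 6 other controls had 27.75 TPM and the highest of all 12 other BLA libraries 28.84 TPM. Adra2b was at 0.50 TPM (11 counts), where the other controls had at most 0.27 TPM (5 counts). In the same library Adra1d was at 2.62 TPM, below the lowest other control at 5.0 TPM. The summed TPM of leptomeningeal markers was 82.3 in this library and 18.3 to 23.0 in the other controls, that of striatal and central amygdala markers was 399 against 76.8 to 236, and that of granule cell markers was 85.1 against 114 to 171. Their part in the receptor values was not tested. No control group of a tested receptor held a sample apart by Dixon's criterion, which by chance marks about 1 in 20 groups.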

How the results depend on the processing

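In 940 refits of the 50 fold changes and regional differences of receptors, the lowest adjusted p was 0.661. The direction was kept in 888 of these and turned in 52, which belonged to 25 values of at most 0.15 on the log2 scale; the cause was not tested. Adra1a from control to stress-high and from stress-low to stress-high in the BLA, and Adra2c from stress-low to stress-high in the DG, kept their direction in all refits run. With all mapped libraries the log2 fold change turned for Adra2c from control to stress-low in the BLA (-0.013), for Adra1d and Adra1a from control to stress-high in the BLA (0.023) and DG (0.026), and for the regional difference of Adra1a over both stressed groups (0.064). With the replicate block by title number it turned for Adra2a from control to stress-high in the DG (0.082), and with the replicate block by animal for the regional difference of Adra1d between stressed groups (0.00263). The title numbers share no animals, and deviations of same-numbered libraries correlated by -0.08 to 0.06 in the BLA and -0.21 to 0.09 in the DG, so they were not read as pairs. The block by title number gave 0 called genes in each comparison.

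Leaving out 1 library at a time gave these ranges of the log2 fold change for values that turned. From control to stress-low in the BLA they were -0.12 to 0.082 for Adra1a, -0.088 to 0.18 for Adra2a, -0.013 to 0.028 for Adra2c and -0.16 to 0.18 for Adrb1. From control to stress-high in the BLA they were -0.39 to 0.039 for Adra1d and -0.038 to 0.13 for Adra2a, from control to both stressed groups -0.035 to 0.15 for Adra2a and -0.12 to 0.045 for Adrb1, and between the stressed groups -0.12 to 0.11 for Adra2a and -0.27 to 0.069 for Adrb1. In the DG they were -0.073 to 0.066 for Adra1d and -0.18 to 0.083 for Adra2a from control to stress-low, -0.14 to 0.10 for Adra2a and -0.060 to 0.11 for Adrb1 from control to stress-high, -0.16 to 0.084 for Adra2a and -0.17 to 0.054 for Adra2c from control to both, and -0.053 to 0.49 for Adra1a and -0.12 to 0.14 for Adra2a between the stressed groups. Adra1a from control to stress-high in the DG stayed at -0.13 to -0.047. Leaving out 1 animal, the regional difference over both stressed groups was -0.20 to 0.13 for Adra1a, -0.21 to 0.028 for Adra2a, -0.15 to 0.087 for Adra2c and -0.18 to 0.056 for Adrb1, and between the stressed groups -0.31 to 0.25 for Adra1d and -0.054 to 0.22 for Adra2a.

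Of all tested genes, 0 were called in each comparison. DESeq2 called 1 gene in each BLA comparison with controls, and 3, 4, 1 and 1 in the DG between the stressed groups and from control to stress-low, stress-high and both. Limma on log2(TPM + 1) called 1 gene from control to stress-low in the BLA, and with no filter 1, 2 and 1 between the stressed groups and from control to stress-high and both. With a pseudocount of 0.1 it called 2, 2 and 1 between the stressed groups and from control to stress-low and both. Without stress-high animal 20, edgeR called 1 gene in each BLA comparison that includes that group, and 0 without any other library. None of these was a receptor. Depth limits Adra2b in both regions and Adra1a and Adra2a in the DG.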
